A study of Mus musculus with 12 samples.

Results

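Pdcd1, Lag3, Cd160, Ctla4 and Pdcd1lg2 encode 4 inhibitory receptors and 1 inhibitory ligand of T cells, and were taken from the deposited expression table by gene symbol. They are 5 of the 12885 gene symbols listed. PD-1 (Pdcd1), LAG-3 (Lag3), CD160 (Cd160) and CTLA-4 (Ctla4) sit on the T cell surface and dampen signalling through the T cell receptor or its costimulator CD28, each on binding its own ligand. PD-1 recruits phosphatases when it binds PD-L1 or PD-L2, the product of Pdcd1lg2. LAG-3 binds MHC class II, CD160 binds HVEM, and CTLA-4 competes with CD28 for CD80 and CD86. In CD8 T cells these genes are known both as activation-induced brakes and as markers of exhausted cells.

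The cells were naive CD8 T cells from the spleen, sorted as CD62Lhi CD44 lo/- from 6-week-old mice labelled female on the C57Bl/6 background. WT animals were compared with homozygous Ikaros-Zn4-/- animals (called Zn4 here), which carry a germline change that removes a zinc finger of Ikaros, a DNA-binding factor of lymphoid cells. Cells were lysed directly (0 h) or stimulated for 12 h or 24 h with plate-bound antibodies to CD3 and CD28, so that the stimulated groups of both genotypes had received the same antibodies. This gave 6 groups of 2 libraries, and the labels do not say whether the 2 are separate animals. The p-values therefore measure the spread between these samples. It may be technical outside the 12 h groups, whose 2 libraries differed in sex-linked transcripts. Values are RPKM, that is, read counts scaled by gene length and by library size.

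The libraries held 24263907 to 33389808 reads. Transcripts of CD8 T cells were abundant throughout: 8 of 8 CD8 and T cell markers were listed, and they summed to 1837 to 3246 RPKM. Markers of natural killer and innate-like cells (2 of 14 listed, 0.489 to 3.36 RPKM in sum) and of CD4 T cells (2 of 3 listed, 0.261 to 2.35 RPKM) were low, and of the erythroid markers 0 of 4 were listed. Of the regulatory T cell markers, 4 of 6 were listed, and Foxp3 was not among those listed. All mice were labelled female, yet 3 libraries of 12 h held Y-linked transcripts: the sum of 4 Y-linked genes was 38.9 RPKM in WT replicate 1, 43.5 RPKM in Zn4 replicate 1 and 21.0 RPKM in Zn4 replicate 2, against at most 0.0209 RPKM elsewhere. Xist, a transcript of female cells, was at 0.0023 RPKM in WT 12 h replicate 1 and at 52.6 RPKM in replicate 2. In Zn4 cells at 12 h it was at 0.0258 and 24.3 RPKM. The 2 libraries of each 12 h group thus differed in sex, wholly in WT cells and in part in Zn4 cells. Changes of the 5 genes were therefore also computed with the Y-linked level as a covariate. Within groups this level differed most between the 2 WT 12 h libraries, so its slope rests almost wholly on that pair. Values adjusted in this way cannot tell sex from any other difference of that pair, in Zn4 cells as in WT cells. In bulk RNA, fewer cells of a type and less RNA per cell cannot be told apart.

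The 5 genes lie at 5 sites on 4 chromosomes of the mouse genome (build GRCm38/mm10, GENCODE M21). Pdcd1 lies on the minus strand of chromosome 1 (chr1:94038305-94052553), Lag3 on the minus strand of chromosome 6 (chr6:124904361-124911705), and Cd160 on the minus strand of chromosome 3 (chr3:96798763-96829351). Ctla4 lies on the plus strand of chromosome 1 (chr1:60887000-60915832) next to Cd28 and Icos, and Pdcd1lg2 on the plus strand of chromosome 19 (chr19:29410919-29471161) next to Cd274, the gene of PD-L1. Each value counts reads over a whole gene. Cd160 overlaps Pdzk1 and Pdcd1lg2 overlaps A930007I19Rik, both on the opposite strand, and Ctla4 spans the pseudogene Rpl18-ps1 on its own strand. The library kit keeps strand, but whether the counting used strand is not given in the sources used here. The deposited values of Pdcd1lg2 imply a gene length of 1645 bp, against 1961 bp of exons in GENCODE M21. The implied lengths of the other 4 genes match that annotation.

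Promoters from RefSeq (GRCm38.p6) were matched by symbol for 4 of the 5 genes, in 5 windows of 250 bases before a start site, since Cd160 has 2. Pdcd1 and Pdcd1lg2 are shown because their levels varied most alike over the 12 libraries, and Ctla4 because its level moved the other way. The Pdcd1 window is chr1:94052554-94052803 (minus strand), the Pdcd1lg2 window chr19:29410669-29410918 (plus strand) and the Ctla4 window chr1:60908775-60909024 (plus strand). Sequences run 5′ to 3′ along the gene's strand, and capitals mark GGGAA, a core bound by Ikaros, or GGAAA, a core bound by NFAT, the factor activated by calcium downstream of the T cell receptor, on either strand.
Pdcd1: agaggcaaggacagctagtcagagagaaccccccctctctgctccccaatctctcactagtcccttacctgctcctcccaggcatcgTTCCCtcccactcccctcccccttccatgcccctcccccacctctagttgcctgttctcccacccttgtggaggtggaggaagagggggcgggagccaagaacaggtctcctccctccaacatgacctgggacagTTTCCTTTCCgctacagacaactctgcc
Pdcd1lg2: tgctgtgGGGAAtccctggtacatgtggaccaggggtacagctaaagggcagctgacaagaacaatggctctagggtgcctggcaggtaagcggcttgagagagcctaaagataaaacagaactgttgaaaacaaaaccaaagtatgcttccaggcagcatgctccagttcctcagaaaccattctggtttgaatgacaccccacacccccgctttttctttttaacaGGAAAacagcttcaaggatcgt
Ctla4: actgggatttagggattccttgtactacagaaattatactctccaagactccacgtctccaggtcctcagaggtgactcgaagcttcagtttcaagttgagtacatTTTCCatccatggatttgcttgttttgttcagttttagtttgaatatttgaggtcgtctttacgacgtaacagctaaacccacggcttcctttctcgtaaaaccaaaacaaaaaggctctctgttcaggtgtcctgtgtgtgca
The Pdcd1 window held 1 match to GGGAA and 2 to GGAAA, the 2 lying end to end just before the start site. The Pdcd1lg2 window held 1 of each, and the Ctla4 window held 0 matches to GGGAA and 1 to GGAAA. The Cd160 windows held 1 and 2 matches to GGGAA and 0 and 1 to GGAAA, with 1 run of GGGAAA counted under both motifs. TGANTCA, the AP-1 site, had 0 matches in all 5 windows. Over 32536 promoters of the same length, 56.3% held GGGAA, 55.7% held GGAAA and 6.73% held TGANTCA, so that the first 2 motifs are common. A match is a stretch of letters and not a measured binding site.

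At rest, Ctla4 was the only abundant transcript of the 5. It measured 32.9 and 16.0 RPKM in WT cells (24.4 ± 12.0, SD, n = 2) and 46.3 and 29.5 RPKM in Zn4 cells (37.9 ± 11.8). The libraries of the 2 genotypes overlapped, and replicate 1 was higher than replicate 2 in both. Ctla4 made up 80.8% to 89.2% of the summed RPKM of the 5 genes in the 4 resting libraries. Regulatory T cells are a known source of Ctla4. Their 4 listed markers summed to 23 to 31.7 RPKM in resting WT and 24.6 to 35.4 RPKM in resting Zn4 cells. Tnfrsf18 was at 13 to 21.7 RPKM and Il2ra at 0.376 to 1.14 RPKM, with overlap of the genotypes. Ikzf2 was at 1.88 and 3.63 RPKM in WT and 7.49 and 10.5 RPKM in Zn4 cells, and Folr4 went the other way, at 7.69 and 6.84 against 2.40 and 2.09 RPKM. Cd4 was at 0.136 and 2.09 RPKM in resting WT replicates 1 and 2, and at 0.776 and 1.88 RPKM in those of Zn4 cells. The part of regulatory T cells in the Ctla4 level was not tested. Cd44, a marker of memory cells, stood between 0.535 and 1.39 RPKM in the resting libraries.

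The other 4 genes were low at rest. Pdcd1 was at 1.74 and 1.59 RPKM in WT cells (86 and 75 reads) and at 1.5 and 2.88 RPKM in Zn4 cells. Cd160 was at 2.13 and 1.49 RPKM in WT cells and at 2.05 and 1.80 RPKM in Zn4 cells. Pdcd1lg2 was at 0.665 and 0.572 RPKM in WT cells and at 0.743 and 0.563 RPKM in Zn4 cells. For each of these 3 genes the libraries of the 2 genotypes overlapped. Lag3 differed: it measured 0.0926 and 0.155 RPKM in WT cells, which rests on 5 and 8 reads, and 1.32 and 1.42 RPKM in Zn4 cells, on 73 and 81 reads. Both Zn4 libraries lay above both WT libraries.

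**Figure D1:**
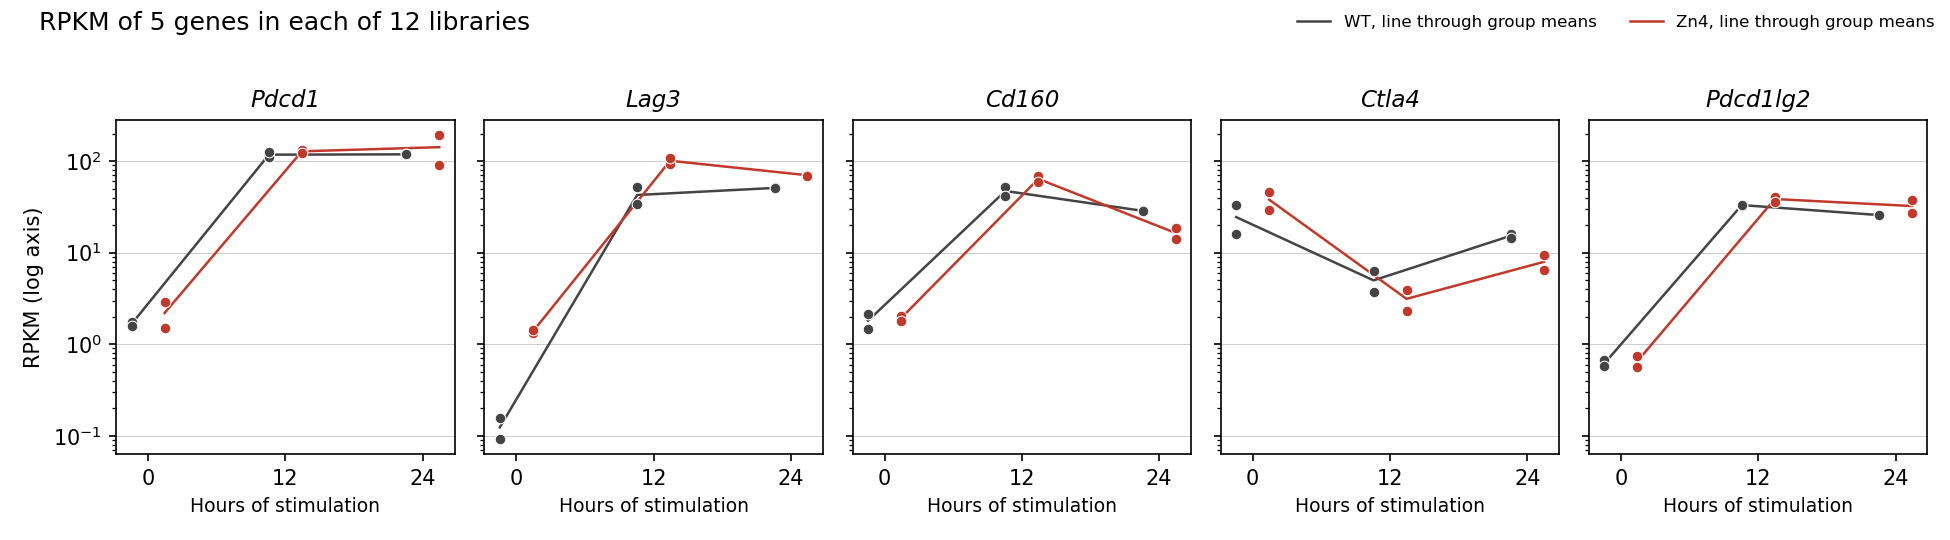
RPKM on a log axis against hours of stimulation for the 5 genes. Points are single libraries (2 per group) and lines join group means, WT in grey and Zn4 in red. Pdcd1, Lag3, Cd160 and Pdcd1lg2 were higher in all stimulated libraries than in all resting ones of their genotype, and Ctla4 was lowest at 12 h.

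Stimulation raised 4 of the 5 genes and lowered the fifth. In WT cells, Pdcd1, Lag3, Cd160 and Pdcd1lg2 rose between 0 h and 12 h and Ctla4 fell. The model gives each change as a difference of log2(RPKM + 1) with its standard error (SE), fitted with limma across 12726 genes, and calls it where the Benjamini-Hochberg adjusted p is under 0.05. Because 1 is added, this scale understates the change of genes near or below 1 RPKM, so ratios of group means are given beside it. At 12 h all 5 genes were called in WT cells, 4 higher and 1 lower, where 70.2% of all tested genes were called (43.1% higher and 27% lower, or 5488 and 3440 genes). Median-ratio scaling, which sets the median change near 0, gave 4363 higher and 4527 lower, and left the direction and call of the 5 genes as they were. A call alone therefore says little here. The median change of the 5 genes was 4.40 against 0.20 for all genes tested.

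Pdcd1 rose to 110 and 125 RPKM in WT cells at 12 h (118 ± 10.2), a ratio of 70.6 to the resting mean (log2 change 5.47 ± 0.30, adjusted p = 2.8e-07). It was the most abundant of the 5 at 12 h and at 24 h, when it stood at 118 and 119 RPKM. The 12 h and 24 h libraries overlapped, and the change between these times was 0.01 ± 0.30 (adjusted p = 0.98). In Zn4 cells it reached 133 and 123 RPKM at 12 h (5.37 ± 0.30 against rest, adjusted p = 2.5e-07). At 24 h the Zn4 replicates were 90.1 and 194 RPKM (142 ± 73.3), below and above both WT libraries. That spread was the widest of any group of the 5 genes.

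Lag3 rose to 51.6 and 33.7 RPKM in WT cells at 12 h (42.6 ± 12.7) and to 51.6 and 50.3 RPKM at 24 h (51.0 ± 0.883). The change from rest was 5.25 ± 0.17 at 12 h (adjusted p = 2.1e-08), a ratio of means of 344 on a resting level of 5 and 8 reads. In Zn4 cells it rose to 92.3 and 109 RPKM at 12 h (101 ± 12.2) and was at 70.6 and 69.5 RPKM at 24 h (70.1 ± 0.785). Both Zn4 libraries at 12 h lay above every other library of the series. The change in Zn4 cells at 12 h was 5.42 ± 0.17 (adjusted p = 1.3e-08), a ratio of means of 73.5. At both times all 4 stimulated WT libraries were below all 4 stimulated Zn4 libraries.

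Cd160, which is also known from natural killer and intraepithelial lymphocytes, peaked at 12 h in both genotypes. In WT cells it was at 52.8 and 41.5 RPKM at 12 h (47.2 ± 7.95) and at 29.0 and 28.2 RPKM at 24 h (28.6 ± 0.553). In Zn4 cells it was at 69.3 and 58.6 RPKM at 12 h (64.0 ± 7.58) and at 14.0 and 18.8 RPKM at 24 h (16.4 ± 3.36). The order of the genotypes thus turned between 12 h and 24 h, with no overlap of libraries at either time. Libraries of 63.2% of all tested genes at 12 h and 68.7% at 24 h did not overlap either. The 12 h difference between genotypes was not called (0.44 ± 0.17, adjusted p = 0.139), nor was the turn itself, as given below. The change from rest at 12 h was 4.10 ± 0.17 in WT cells (adjusted p = 5.9e-08) and 4.47 ± 0.17 in Zn4 cells (adjusted p = 2.9e-08).

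Pdcd1lg2, best known from dendritic cells and macrophages, rose to 32.7 and 33.5 RPKM in WT cells at 12 h (33.1 ± 0.589) and to 40.9 and 36.2 RPKM in Zn4 cells (38.5 ± 3.33). At 24 h it was at 25.9 and 25.6 RPKM in WT cells (25.7 ± 0.206) and at 27.1 and 37.5 RPKM in Zn4 cells (32.3 ± 7.37). Ratios of the 12 h mean to rest were 53.6 in WT cells (log2 change 4.40 ± 0.14, adjusted p = 2.1e-08) and 59.0 in Zn4 cells (4.58 ± 0.14, adjusted p = 1.3e-08). All stimulated libraries of both genotypes lay above all resting ones. Of the myeloid and dendritic markers 4 of 14 were listed. They summed to 12.5 to 14.1 RPKM at rest, 19.3 to 24.8 RPKM at 12 h, 24.2 RPKM in both WT libraries and 44.3 and 54.2 RPKM in the Zn4 libraries at 24 h. Cst3 gave 11.3 to 31.5 RPKM of these sums, and the integrin Itgam was at most 0.0285 RPKM at 12 h. Batf3, a factor of dendritic cells that activated T cells can also express, was at 0 in all resting libraries and in WT 12 h replicate 1, where Pdcd1lg2 was at 32.7 RPKM. It was at 0.521 and 0.694 RPKM in WT cells and at 18.2 and 13.8 RPKM in Zn4 cells at 24 h. Zbtb46, another dendritic cell factor, went from at most 0.135 RPKM at rest to 4.43 and 1.98 RPKM in Zn4 cells at 24 h. Their part in the rise of Pdcd1lg2 was not tested.

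Ctla4 moved against the other 4. In WT cells it was at 6.29 and 3.68 RPKM at 12 h (4.98 ± 1.85) and at 16.2 and 14.5 RPKM at 24 h (15.3 ± 1.22). In Zn4 cells it was at 2.33 and 3.93 RPKM at 12 h (3.13 ± 1.13) and at 6.49 and 9.40 RPKM at 24 h (7.94 ± 2.06). All 4 libraries of 12 h lay below all other Ctla4 libraries. The fall from rest to 12 h was 4.91-fold in WT cells (log2 change -2.04 ± 0.36, adjusted p = 0.00069) and 12.1-fold in Zn4 cells (-3.23 ± 0.36, adjusted p = 2.7e-05). With the Y-linked covariate the changes from rest to 12 h in WT cells were 5.55 for Pdcd1, 4.98 for Lag3, 3.91 for Cd160, 4.40 for Pdcd1lg2 and -2.30 for Ctla4. In Zn4 cells they were 5.51, 4.92, 4.12, 4.58 and -3.71 in the same order, and all 10 were called. As a share of the summed RPKM of the 5 genes, Ctla4 dropped to between 0.692% and 6.71% in the 8 stimulated libraries.

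**Figure D2:**
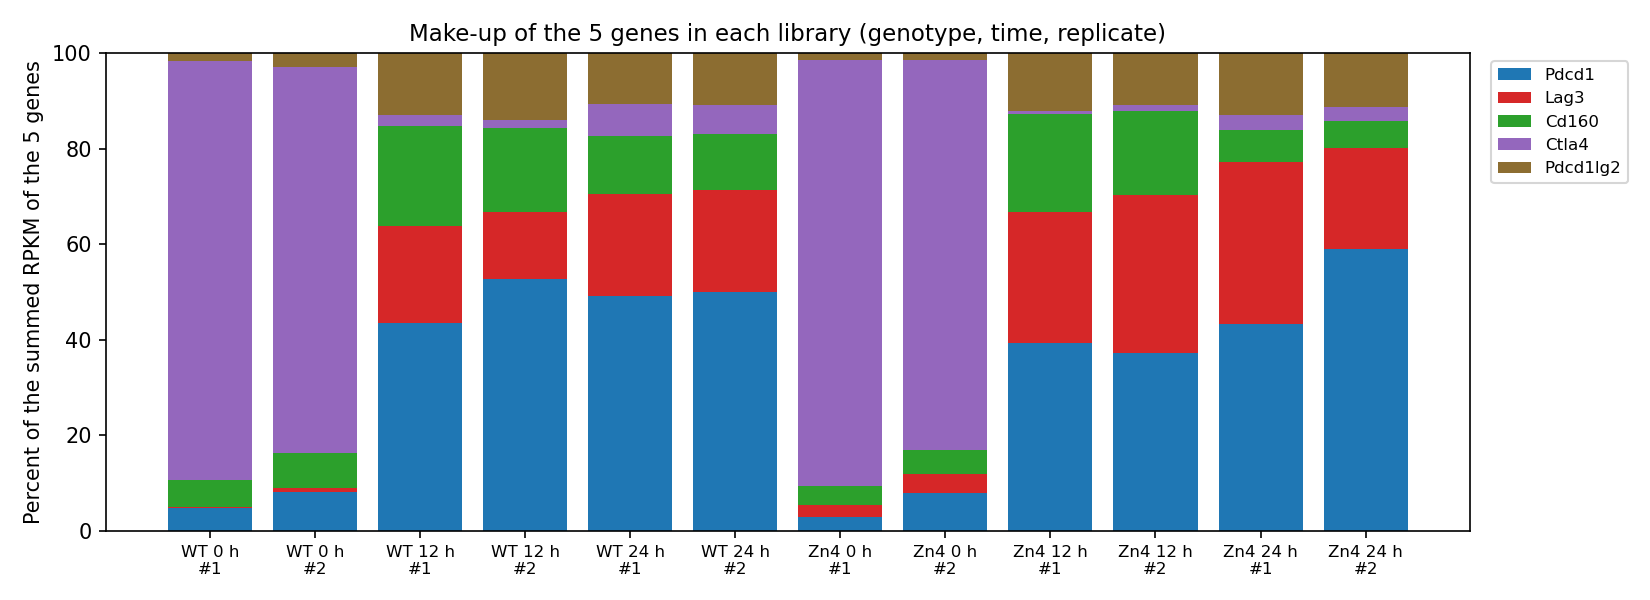
Stacked bars show the percent of the summed RPKM of the 5 genes that each gene makes up, for each of the 12 libraries. Ctla4 makes up 80.8% to 89.2% at rest and 0.692% to 6.71% after stimulation, when Pdcd1 makes up the largest share, 37.2% to 58.9%.

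At 24 h in WT cells, 4 of the 5 genes were called against rest, all higher, where 73.9% of tested genes were called (48.3% higher and 25.6% lower, or 6153 and 3256 genes, against 4708 and 4634 under median-ratio scaling). The 12 h and 24 h comparisons of a genotype share its resting libraries. Pdcd1 (5.49 ± 0.30), Lag3 (5.53 ± 0.17), Cd160 (3.41 ± 0.17) and Pdcd1lg2 (4.05 ± 0.14) had adjusted p-values of 2.4e-07 or lower. Ctla4 was at -0.56 ± 0.36 (adjusted p = 0.191), and its 24 h libraries overlapped with the resting ones. That result depended on the scaling and on 1 library. The median gene rose by 0.31 in this comparison, and under median-ratio scaling, which sets that shift aside, Ctla4 was called lower (-0.94, adjusted p = 0.0383), as it was under quantile normalization (-0.95, adjusted p = 0.0429). Leaving out WT 0 h replicate 2 gave -1.06 (adjusted p = 0.0273).

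In Zn4 cells all 5 genes were called at both times. In each comparison 4 were higher and 1 was lower. At 12 h against rest 73% of tested genes were called (43.5% higher and 29.6% lower), and at 24 h against rest 74.7% (48.7% higher and 26% lower). Median-ratio scaling gave 4532 higher and 4703 lower at 12 h, against 5533 and 3763, and 4767 and 4682 at 24 h, against 6194 and 3315. At 24 h the changes were 5.42 ± 0.30 for Pdcd1, 4.90 ± 0.17 for Lag3, 2.56 ± 0.17 for Cd160 and 4.32 ± 0.14 for Pdcd1lg2, all higher, and -2.11 ± 0.36 for Ctla4 (adjusted p = 0.0005). Unlike in WT cells, both Zn4 libraries of 24 h were below both resting libraries for Ctla4.

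Between 12 h and 24 h the members parted. In WT cells Cd160 fell (-0.69 ± 0.17, adjusted p = 0.0174) and Ctla4 rose (1.48 ± 0.36, adjusted p = 0.017), which makes 2 of 5 genes called where 24% of tested genes were (17% higher and 6.94% lower, or 2169 and 883 genes, against 1734 and 1455 under median-ratio scaling). The Cd160 call was lost without WT 12 h replicate 1 (-0.52, adjusted p = 0.141), WT 24 h replicate 1 (-0.71, 0.0772) or WT 24 h replicate 2 (-0.67, 0.101), and with the Y-linked covariate (-0.51, 0.136). The Ctla4 call was lost without WT 12 h replicate 2 (1.16, adjusted p = 0.11), WT 24 h replicate 1 (1.41, 0.0907) or WT 24 h replicate 2 (1.56, 0.0735). Lag3 was at 0.28 ± 0.17 (adjusted p = 0.259), and was called higher without WT 12 h replicate 1 (0.58, adjusted p = 0.0186) and with the Y-linked covariate (0.55, 0.0413). Pdcd1lg2 was at -0.35 ± 0.14 (adjusted p = 0.102), and was called lower under median-ratio scaling (-0.45, adjusted p = 0.0459), with only the groups compared (0.0054), and without Zn4 24 h replicate 1 (0.029) or replicate 2 (0.0295), neither of which enters its mean.

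In Zn4 cells 3 of 5 genes were called between 12 h and 24 h, where 33.6% of tested genes were (22.6% higher and 11% lower, or 2875 and 1398 genes, against 2319 and 2067 under median-ratio scaling). Cd160 fell 3.90-fold (-1.91 ± 0.17, adjusted p = 4.8e-05) and was called under all 23 alternatives. Lag3 fell (-0.51 ± 0.17, adjusted p = 0.0396) and Ctla4 rose (1.12 ± 0.36, adjusted p = 0.0403), both close to the threshold. The Lag3 change was -0.02 with the Y-linked covariate (adjusted p = 0.981), and its call was lost without any 1 of the 2 Zn4 12 h, 2 Zn4 24 h or 2 WT 24 h libraries, with adjusted p from 0.0619 to 0.21. The covariate takes its slope mostly from the WT 12 h pair, where Lag3 was higher in the library with Y-linked transcripts. In the Zn4 12 h pair Lag3 was lower, at 92.3 against 109 RPKM, in the library with the higher Y-linked sum. The Lag3 call was also lost with 0.1 RPKM added (-0.52, adjusted p = 0.0718) and with the replicate block at each time point (-0.51, 0.0553). The Ctla4 call was lost without the same libraries, with adjusted p from 0.0515 to 0.232, with the covariate (1.61, adjusted p = 0.168), under median-ratio scaling (0.0558) or quantile normalization (0.86, 0.101), and by limma-voom (1.36, 0.0587). Pdcd1lg2 was at -0.26 ± 0.14 (adjusted p = 0.183) and was called lower without Zn4 24 h replicate 2 (-0.49, adjusted p = 0.0161).

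The order of levels over the 6 groups was read from the libraries, and neighbours in the order are described as apart where their libraries did not overlap. This is not a test. Between genotypes, libraries of 39.8%, 63.2% and 68.7% of all tested genes did not overlap at 0, 12 and 24 h. Pairs apart but not called by limma included Lag3 at 24 h (adjusted p = 0.0906), Cd160 at 12 h (0.139) and Ctla4 at 24 h (0.125), each between genotypes. For Lag3 the order ran from WT 0 h through Zn4 0 h, WT 12 h, WT 24 h and Zn4 24 h to Zn4 12 h, and WT 12 h with WT 24 h was the pair of neighbours that overlapped. For Cd160 it ran from WT 0 h and Zn4 0 h, which overlapped, through Zn4 24 h, WT 24 h and WT 12 h to Zn4 12 h, each apart from the next. For Ctla4 the lowest were Zn4 12 h and WT 12 h, which overlapped, then Zn4 24 h, then WT 24 h, WT 0 h and Zn4 0 h, of which neighbours overlapped. For Pdcd1 the stimulated groups fell within 118 to 142 RPKM, and Zn4 24 h, the highest mean, overlapped with the group below it. For Pdcd1lg2 the order of the stimulated groups was WT 24 h, Zn4 24 h, WT 12 h and Zn4 12 h, and Zn4 24 h overlapped with WT 12 h.

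Over the 12 libraries, log2(RPKM + 1) of Pdcd1 and Pdcd1lg2 correlated at Pearson r = 0.994 and that of Pdcd1 and Lag3 at 0.979. Ctla4 correlated with the other 4 genes at -0.79 to -0.849. These values are descriptions over 6 groups of 2 libraries each, which share the large step between resting and stimulated cells. Among 7606 genes whose group means spanned at least 1 on the log2 scale, those most like Pdcd1 included Cfdp1 (r = 0.997), Cdk4, Prep and Ran. Those most like Lag3 were Gm15495 (0.996), Uck2, Ssr2, Bsg and Mrpl50. Those most like Cd160 were Ddx41 (0.997), Ube2cbp, Snord49a, Fbl and Dph6, and those most like Pdcd1lg2 were Psma5 (0.999), Banf1, Nhp2, C1qbp and Alg8. Those most like Ctla4 were H2-M3 (0.972), Slc2a9, Ttc7, Trim30d and Ssbp2.

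The genotypes were compared at each time. Of the 5 genes, Lag3 was the one called at rest and at 12 h, and Cd160 the one called at 24 h. At rest 1 of 5 genes was called, where 5.72% of tested genes were called (3.76% higher and 1.96% lower in Zn4 cells) and the libraries of 39.8% of tested genes did not overlap. Lag3 was higher in Zn4 cells by 1.08 ± 0.17 (adjusted p = 0.00495), and the ratio of means was 11.1. The log2 value is small beside that ratio because both levels are near or below the 1 RPKM that was added. With 0.1 added it was 2.73 (adjusted p = 8.8e-05), and limma-voom on the reads gave 3.42 (adjusted p = 0.0138). The call held under all 24 alternatives, with adjusted p up to 0.0364, and the libraries of 12 h do not enter the value, which was 1.08 without them (adjusted p = 0.00167).

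Several markers moved with resting Lag3. Markers of B cells (4 of 9 listed) summed to 3.03 and 3.55 RPKM in resting WT cells and to between 24.8 and 47.5 RPKM in resting Zn4 cells, most of it Cd74 (40.9 and 22.0 RPKM in Zn4 cells). The B cell gene Cd79b was at 2.05 and 1.54 RPKM in WT and at 1.55 and 1.11 RPKM in Zn4 cells. The MHC class II genes H2-Aa and H2-Ab1, whose products LAG-3 binds, were at 2.12 and 2.89 RPKM in Zn4 replicate 1 and at 0.672 and 0.996 RPKM in Zn4 replicate 2, against at most 0.0999 RPKM in WT cells. Of the memory markers (4 of 4 listed), Cxcr3 was at 15.0 and 10.5 RPKM in resting Zn4 cells against 0.790 and 0.756 RPKM in WT cells, while Cd44 was at 0.535 and 0.990 RPKM against 1.23 and 1.39 RPKM. Il2rb was at 227 and 191 RPKM in Zn4 against 189 and 155 RPKM in WT cells, and Ly6c2 at 27.4 and 9.64 against 6.83 and 3.97 RPKM. The 4 memory markers summed to 212 to 270.1 RPKM in Zn4 and 161 to 198 RPKM in WT cells, without overlap. The listed myeloid markers summed to 12.5 and 14.1 RPKM in Zn4 cells and to 13.5 and 13.9 RPKM in WT cells. Their part in the Lag3 difference was not tested.

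At 12 h Lag3 was again higher in Zn4 cells, by 1.25 ± 0.17 (adjusted p = 0.00124, ratio of means 2.37), and 1 of 5 genes was called where 13.1% of tested genes were (4.85% higher and 8.28% lower). With the Y-linked covariate the difference was 1.02 (adjusted p = 0.00386). Both libraries labelled replicate 1 held Y-linked transcripts, and Lag3 was at 92.3 RPKM in that of Zn4 cells and at 51.6 RPKM in that of WT cells. The call held under all 23 alternatives, with differences from 0.95 to 1.55. Cd160 was at 0.44 ± 0.17 (adjusted p = 0.139) and Ctla4 at -0.53 ± 0.36 (adjusted p = 0.428), the first with libraries apart, as for 63.2% of tested genes at this time, and the second with overlap. Pdcd1 was at 0.12 ± 0.30 (adjusted p = 0.86) and Pdcd1lg2 at 0.21 ± 0.14 (adjusted p = 0.406). With the Y-linked covariate these 4 were at 0.28 (Cd160, adjusted p = 0.502), -0.75 (Ctla4, 0.41), 0.19 (Pdcd1, 0.88) and 0.21 (Pdcd1lg2, 0.62).

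At 24 h Cd160 was lower in Zn4 cells, by -0.78 ± 0.17 (adjusted p = 0.0117), or 1.74-fold, and was the 1 gene of 5 called, where 19.4% of tested genes were (9.4% higher and 9.96% lower). It was lower in 2 of 2 Zn4 libraries. The call was lost without WT 24 h replicate 1 (-0.76, adjusted p = 0.0775), WT 24 h replicate 2 (-0.80, 0.0652) or Zn4 24 h replicate 1 (-0.58, 0.099). Cell type markers differed beside it. The 8 CD8 and T cell markers summed to 1837 and 2076 RPKM in Zn4 against 2777 to 2868 RPKM in WT cells at 24 h, and Cd3g was at 88.0 and 128 against 246 and 237 RPKM. The memory markers summed to 280.3 to 312 against 155 to 156 RPKM, and the regulatory T cell markers to 240 to 306 against 189 to 195 RPKM. Of the latter, Il2ra was at 214 and 174 against 106 and 109 RPKM, and Tnfrsf18 and Ikzf2 were also higher in Zn4 cells. Folr4 went the other way, at 4.78 and 10.9 against 42.4 and 44.1 RPKM. The 2 listed natural killer and innate-like markers, of 14, summed to 1.11 to 1.94 against 0.489 to 1.05 RPKM. Their part in the Cd160 difference was not tested. Ctla4 was at -0.89 ± 0.36 (adjusted p = 0.125) and Lag3 at 0.45 ± 0.17 (adjusted p = 0.0906), each with libraries apart. Libraries that do not overlap were common at this time: 68.7% of all tested genes had them. Lag3 was called higher with only the groups compared (adjusted p = 0.0202), without all 12 h libraries (adjusted p = 0.0199), without WT 12 h replicate 1 (0.0165) or 2 (0.0163) alone and with the Y-linked covariate (0.0311), its difference staying at 0.45. Ctla4 was called lower with only the groups compared (adjusted p = 0.0443). Pdcd1 was at 0.16 ± 0.30 (adjusted p = 0.772), and without Zn4 24 h replicate 2 it was at -0.39 (adjusted p = 0.253). Pdcd1lg2 was at 0.30 ± 0.14 (adjusted p = 0.175), and was called higher without Zn4 24 h replicate 1 (0.53, adjusted p = 0.0273).

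**Figure D3:**
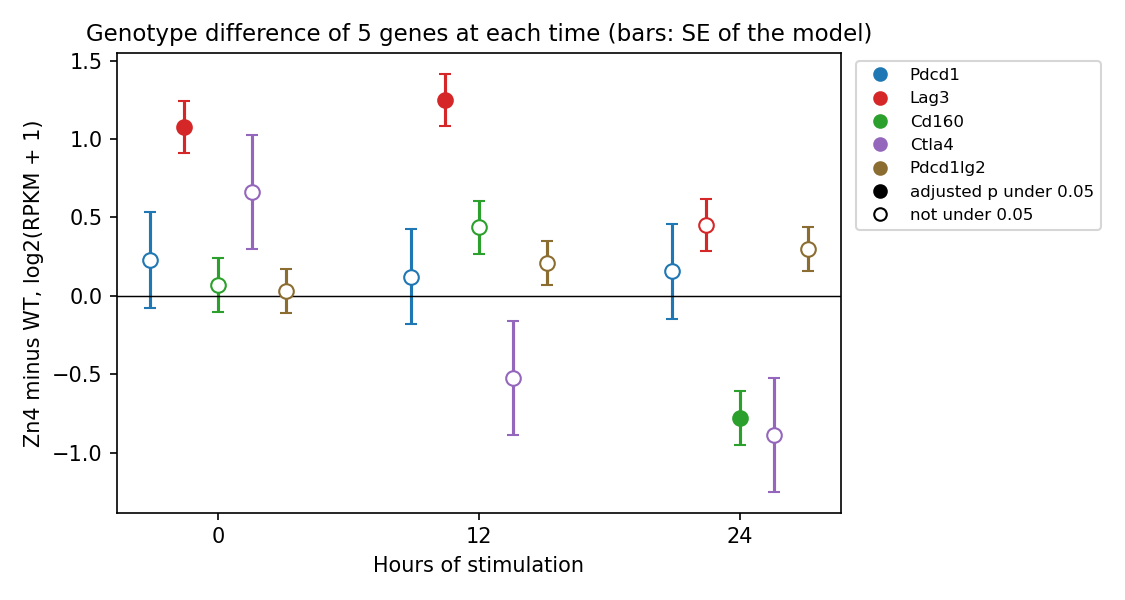
Zn4 minus WT difference of log2(RPKM + 1) at 0, 12 and 24 h for the 5 genes, with bars of 1 SE of the model. Filled points have an adjusted p under 0.05: Lag3 at 0 h (1.08) and 12 h (1.25), and Cd160 at 24 h (-0.78).

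Whether the response to stimulation itself differed between genotypes was tested with the genotype by time interaction. By limma 0 of 5 genes were called for 12 h against 0 h, where 5.12% of tested genes were, and 1 had an unadjusted p under 0.05. For 24 h against 0 h 0 of 5 were called, where 8.24% of tested genes were, and 3 had an unadjusted p under 0.05. For 24 h against 12 h, a contrast added after the levels had been seen, 0 of 5 were called, where 0.786% of tested genes were, and 2 had an unadjusted p under 0.05. Limma-voom called 0, 1 and 0 of the 5. The largest interactions were those of Ctla4 for 24 h against 0 h (-1.55 ± 0.51, adjusted p = 0.105) and 12 h against 0 h (-1.19 ± 0.51, adjusted p = 0.255), and of Cd160 for 24 h against 12 h (-1.22 ± 0.24, adjusted p = 0.064). The Cd160 value for 24 h against 0 h was -0.85 ± 0.24 (adjusted p = 0.0653). The turn in the order of the genotypes for Cd160 between 12 h and 24 h was thus not called in this fit. Its libraries did not overlap at either time, but neither did those of 63.2% and 68.7% of all tested genes. The 12 h difference was itself not called (adjusted p = 0.139). With the Y-linked covariate the Cd160 interaction was -1.06 (24 h against 12 h, adjusted p = 0.182). It was called without Zn4 24 h replicate 2, for 24 h against 12 h (-1.42, adjusted p = 0.0201) and for 24 h against 0 h (-1.05, 0.0289), and for the latter without WT 0 h replicate 1 (-1.01, 0.0499). Ctla4 was called for 24 h against 0 h without WT 0 h replicate 1 (-2.05, adjusted p = 0.0393).

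For Lag3 the interaction depended on the scale. For 12 h against 0 h it was 0.17 ± 0.23 with 1 RPKM added (adjusted p = 0.783), -1.46 with 0.1 added (adjusted p = 0.0218) and -2.14 by limma-voom (adjusted p = 0.129). For 24 h against 0 h it was -0.63 ± 0.23 (adjusted p = 0.146), -2.27 with 0.1 added (adjusted p = 0.00546) and -2.96 by limma-voom (adjusted p = 0.0357), and it was called at -0.63 without either WT 12 h library (0.0378 and 0.0375). In ratios of means, Lag3 rose 344-fold in WT cells and 73.5-fold in Zn4 cells at 12 h, from a resting mean 11.1 times as high in Zn4 cells. The resting WT level behind these ratios rests on 5 and 8 reads.

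The genome neighbours of the members were compared with them. Ctla4 shares its locus with Cd28, the costimulatory receptor that was ligated here, and with Icos, a costimulatory relative. Cd28 was at 96.2, 71.2 and 92.7 RPKM in WT cells at 0, 12 and 24 h (group means) and at 122, 34.8 and 46.8 RPKM in Zn4 cells. Icos was at 56.0, 29.8 and 36.3 RPKM in WT cells and at 42.8, 13.9 and 16.8 RPKM in Zn4 cells. All 3 genes of the locus had their lowest mean at 12 h in both genotypes. The fall of Cd28 from rest to 12 h in WT cells was not called (-0.39 ± 0.23, adjusted p = 0.164), and its libraries overlapped. Between 12 h and 24 h neither Cd28 nor Icos was called in either genotype (adjusted p from 0.18 to 0.276). Icos was lower in Zn4 cells at 12 h (-1.05 ± 0.14, adjusted p = 0.00124) and 24 h (-1.07 ± 0.14, adjusted p = 0.00085), under every alternative tried.

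Cd28 was lower in Zn4 cells at 12 h (-1.0 ± 0.23, adjusted p = 0.0207) and at 24 h (-0.98 ± 0.23, adjusted p = 0.0173), with no overlap of libraries. The 12 h call was lost with the Y-linked covariate (-0.89, adjusted p = 0.114) and without WT replicate 2 (-0.86, 0.152), Zn4 replicate 1 (-1.04, 0.104) or Zn4 replicate 2 (-0.97, 0.0985). The 24 h call was lost without WT replicate 1 (-1.01, adjusted p = 0.0828), WT replicate 2 (-0.95, 0.0969) or Zn4 replicate 1 (-0.84, 0.128). Cd28 exceeded Ctla4 in each library, with a ratio of RPKM of 3.05 to 4.47 at rest, 8.67 to 21.3 at 12 h and 5.47 to 6.53 at 24 h. The ratio was thus highest in the 12 h libraries of both genotypes.

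Cd4, the neighbour of Lag3, stayed at or below 2.09 RPKM in all 12 libraries and at most at 0.288 RPKM after stimulation, while Lag3 reached 33.7 to 109 RPKM. Cd274, the neighbour of Pdcd1lg2 and the gene of the other PD-1 ligand, was at 12.4, 66.2 and 40.2 RPKM in WT cells and at 22.2, 42.6 and 48.2 RPKM in Zn4 cells at 0, 12 and 24 h. It rose at 12 h in WT cells (2.35 ± 0.28, adjusted p = 4.2e-05) and at 24 h in WT (1.65 ± 0.28, adjusted p = 0.00042) and Zn4 cells (1.16 ± 0.28, adjusted p = 0.00379). At 12 h in Zn4 cells it was at 0.98 ± 0.28 (adjusted p = 0.00953), a call lost under quantile normalization (0.62, adjusted p = 0.0752), with the Y-linked covariate (1.25, 0.0513) and with Zn4 0 h replicate 2 left out (0.52, 0.0695). It was not called between genotypes at any time (adjusted p from 0.183 to 0.577). Pdcd1lg2 was below Cd274 in every library: their ratio was 0.0253 to 0.0604 at rest and 0.460 to 0.980 after stimulation. The highest ratios, 0.980 and 0.833, were those of the Zn4 12 h libraries.

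**Figure D4:**
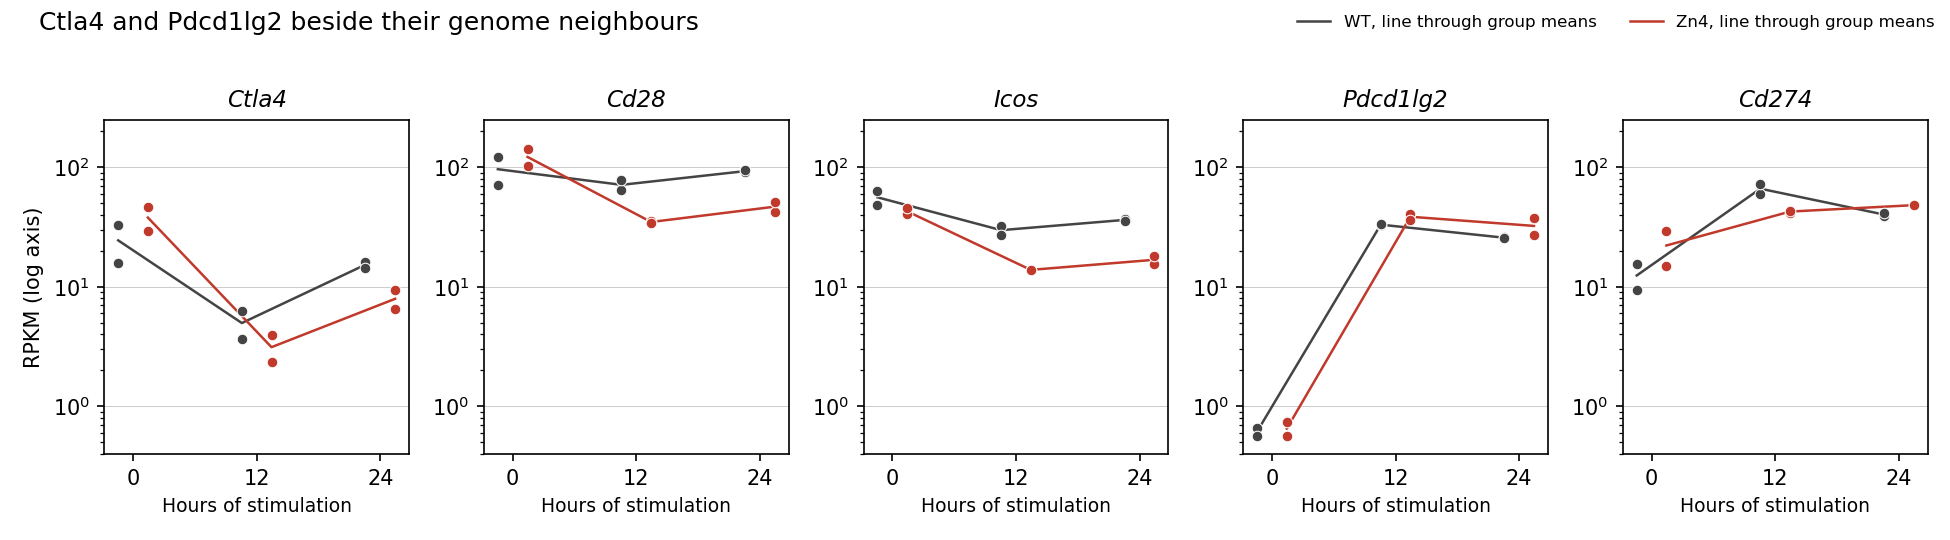
RPKM on a log axis against hours of stimulation for Ctla4 with its neighbours Cd28 and Icos, and for Pdcd1lg2 with its neighbour Cd274. Points are single libraries and lines join group means; at 12 h and 24 h the Zn4 libraries of Cd28 and Icos lie below all WT libraries of that time.

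Other genes of these pathways were taken from lists. Of 24 names of other inhibitory receptors, 16 were listed and tested. In WT cells at 24 h 6 of the 16 were called higher than at rest and 5 lower, where 73.9% of all tested genes were called. Of the 4 receptors among the members, Pdcd1, Lag3 and Cd160 were called higher there, as were 48.3% of all tested genes. Ctla4 was not called (-0.56 ± 0.36, adjusted p = 0.191). In Zn4 cells 6 of the 16 were called higher and 9 lower (median -0.70), where 74.7% of all tested genes were called (48.7% higher and 26% lower). Median-ratio scaling gave 5 higher and 7 lower in WT cells and 5 higher and 10 lower in Zn4 cells. Cd5, which tunes T cell receptor signalling, rose in both (3.17 ± 0.09 in WT and 3.21 ± 0.09 in Zn4 cells). The largest fall in Zn4 cells was that of Pecam1 (-3.24 ± 0.13).

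Between genotypes, 4 of the 16 receptors were called higher in Zn4 cells and 2 lower at rest, 4 higher and 6 lower at 12 h, and 4 higher and 6 lower at 24 h. Of all tested genes 5.72%, 13.1% and 19.4% were called at these times. With only the groups compared, Lilrb4 was the only one of the 16 still called at rest. At rest the 6 calls became 4 without WT replicate 1, 3 without Zn4 replicate 1 and 4 without Zn4 replicate 2. Havcr2, the gene of TIM-3, was higher in Zn4 cells at 12 h (2.11 ± 0.18) and at 24 h (1.14 ± 0.18, group means 1.33 and 0.0476 RPKM), so its level stayed far below that of Lag3. Lilrb4 was higher at 0 h (3.28 ± 0.18), 12 h (2.75 ± 0.18) and 24 h (2.91 ± 0.18). Its near-identical relative Gp49a was also higher at 24 h (2.52 ± 0.33), and reads of the 2 may have been split between them, so both values are uncertain. Lower at 24 h were 4632428N05Rik, the older symbol of the VISTA gene Vsir (-0.78 ± 0.08), Klrd1, a chain of the NKG2A receptor (-1.22 ± 0.08), Cd101 (-1.31 ± 0.18) and Pecam1 (-1.42 ± 0.13). The 16 receptors thus held calls in both directions at 24 h, 4 higher and 6 lower.

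Ligands of inhibitory receptors were represented by 11 of 15 names. At 24 h 4 were called higher in Zn4 cells and 2 lower, where 19.4% of all tested genes were called, with a median of 0.26 against -0.02 for all genes. Lgals3, a galectin reported as a LAG-3 ligand, averaged 67.4 RPKM with Zn4 and 2.94 RPKM with WT (4.09 ± 0.44, adjusted p = 0.00031). Cd80, a ligand of CTLA-4 and CD28, was at 9.47 against 1.26 RPKM (2.09 ± 0.31, adjusted p = 0.00177), and Cd200 at 130 against 51.0 RPKM (1.34 ± 0.11). Lgals9, a ligand of TIM-3 (-0.94 ± 0.16), and Cd48 (-0.89 ± 0.13) were lower. Cd86, the other ligand of CTLA-4, was at most 3.32 RPKM in any group mean. The partner of CD160, HVEM (Tnfrsf14), was at 45.9, 19.5 and 21.6 RPKM in WT cells and at 46.9, 6.82 and 10.9 RPKM in Zn4 cells at 0, 12 and 24 h.

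Of 12 names of costimulatory receptors 11 were tested, and at 24 h 1 was called higher and 4 lower in Zn4 cells, beside 9.4% higher and 9.96% lower of all tested genes. These 5 calls became 2 without WT 24 h replicate 1, WT 24 h replicate 2 or Zn4 24 h replicate 1. Tnfrsf9 (4-1BB) rose with stimulation, by 5.53 ± 0.24 in WT and 5.83 ± 0.24 in Zn4 cells at 24 h, as Pdcd1 did. Cd27 (-0.75 ± 0.08, adjusted p = 0.00025) was lower in Zn4 cells at 24 h, beside Icos. Of 24 names of phosphatases and adaptors downstream of the receptors 23 were tested, with 2 called higher and 6 lower in Zn4 cells at 24 h, where 19.4% of all tested genes were called. These 8 calls became 2 with WT 24 h replicate 1 left out, and 3 with either WT 24 h replicate 2 or Zn4 24 h replicate 1 left out. The adaptor Sh2d1a (SAP) was higher (1.87 ± 0.10, adjusted p = 1.1e-05). Ptpn6 and Inpp5d, which encode the phosphatases SHP-1 and SHIP-1, were among the 6 lower.

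Of 29 names of transcription factors reported to act on these genes 26 were tested. In resting cells 8 were called higher in Zn4 cells and 0 lower, with a median of 0.61 against -0.02 for all genes. At 12 h 2 were called higher and 5 lower, and at 24 h 9 higher and 2 lower. The shares of all tested genes called were 5.72%, 13.1% and 19.4%. With only the groups compared, 2 genes of all 5 lists were called at rest, Lilrb4 and Tnfrsf25, against 22 as reported. Neither is one of these factors. The 8 calls at rest became 3 without WT replicate 2 or either Zn4 replicate, and 2 without the 12 h libraries. The 7 at 12 h became 2 without Zn4 replicate 1, 4 without Zn4 replicate 2 and 3 without either WT replicate, and the 11 at 24 h became 7 without either WT replicate. At 24 h Eomes (3.10 ± 0.36), Jun (2.21 ± 0.38), Junb (1.40 ± 0.21), Nr4a1 (1.30 ± 0.20), Nr4a2 (1.14 ± 0.20) and Nfil3 (1.22 ± 0.20) were higher in Zn4 cells. Tox, a factor of exhausted cells, was lower (-1.54 ± 0.14, adjusted p = 0.00013), at 1.19 against 5.32 RPKM. Pdcd1, to which NR4A, AP-1 and TOX proteins have been reported to bind, was not called at that time.

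**Figure D5:**
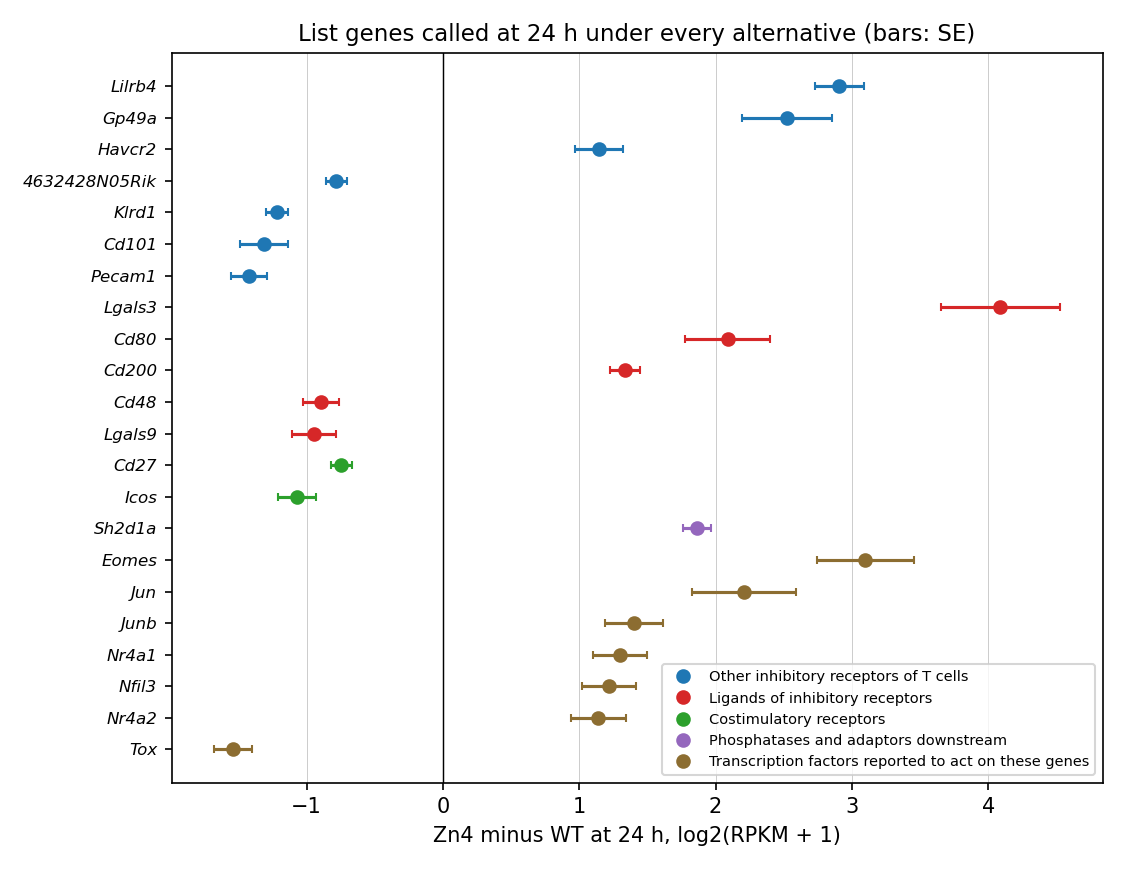
Zn4 minus WT difference of log2(RPKM + 1) at 24 h, with bars of 1 SE, for the 22 genes of the 5 lists that were called at 24 h and under every alternative tried. Colours mark the lists; Lgals3 (4.09) is the highest and Tox (-1.54) the lowest.

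Across the 5 lists 40 of 87 tested genes were called at 24 h between genotypes, where 19.4% of all tested genes were. The count was 23, 25 and 26 without WT 24 h replicate 1, WT 24 h replicate 2 and Zn4 24 h replicate 1. The call of 22 held under every alternative that tested the gene. The other 18 lost it under at least 1 and are Cd28, the neighbour of Ctla4, and the following, named without values of the difference: Btla, Cd5, Tnfrsf14, Pvr, Tnfrsf4, Cd226, Ptpn6, Inpp5d, Sh2d2a, Csk, Pag1, Dgkz, Ppp2ca, Nr4a3, Fos, Stat4 and Id3. Of the naive-state markers, Ccr7 was at 1275 RPKM in Zn4 24 h replicate 1 and at 466 RPKM in replicate 2, against 211 and 232 RPKM in WT cells at 24 h. The same pair of Zn4 libraries differed in Pdcd1, at 90.1 and 194 RPKM, while their Lag3 values were 70.6 and 69.5 RPKM.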

How the data were processed

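RNA from 12 libraries (6 groups of 2) was made into stranded, single-end libraries and read on an Illumina HiSeq, per the labels' protocols. The authors used TopHat2 2.0.12 and HTSeq 0.6.1 with mm10 (GRCm38), per the submitters' processing notes. The deposited table holds RPKM values made by the authors for 12892 lines and 12885 symbols (7 stood on 2 lines, and the upper one was used). The listed genes all reach a mean of 1.0005 RPKM or more in some group. Whole reads could be recovered for 12885 of 12885 genes (100%), to within 0.02 reads, and gave library totals of 24263907 to 33389808.

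Values were tested as log2(RPKM + 1) with limma 3.58.1 in R 4.3.3: a gene needed 1 RPKM or more in 2 or more libraries, with a mean per group over all 12 libraries, 6 residual degrees of freedom, empirical Bayes with a trend, and Benjamini-Hochberg adjustment over all tested genes within each comparison. The fit was tested on simulated data. The 5 members, the lists and the comparisons were chosen with earlier results of these data known. The rule names the members, their genome neighbours, list genes called in Zn4 against WT at 24 h, the 3 largest called changes of a list in a comparison described, and the 5 genes most like each member, of which 1 is not reported here. The 24 h genotype differences of list genes that lost that call under an alternative were left out, except that of the neighbour Cd28. Alternatives were a pseudocount of 0.1, no filter or one at 5 RPKM, 2 other scalings, a robust prior, fits of only the groups compared, replicate blocks, limma-voom on the recovered reads and leaving out libraries. The Y-linked covariate, the fit without 12 h libraries, the block at each time point and the interaction of 24 h against 12 h were chosen after seeing the data.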

Additional observations from a re-analysis of the deposited data

How the results depend on the processing

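Of 1405 values of the 5 genes under alternatives, 1319 kept direction and side of the threshold, 31 gained a call, 29 lost 1 and 26 changed sign. The number of the 5 genes called moved as follows, and the cause was not tested. For 24 h against 12 h in WT cells (2 called) it was 0 to 3 with 1 library left out, and in Zn4 cells (3 called) 1 to 3, and 1 with the Y-linked covariate. For Zn4 against WT at 24 h (1 called) it was 0 to 2 with 1 library left out, 3 with only the groups compared, 2 with the Y-linked covariate and 2 without the 12 h libraries. For the interaction of 12 h against 0 h (0 called) it was 1 with 0.1 RPKM added. For that of 24 h against 0 h (0 called) it was 0 to 2 with 1 library left out and 1 each with 0.1 added, with only the groups compared, by limma-voom and without the 12 h libraries. For that of 24 h against 12 h (0 called) it was 0 to 1 with 1 library left out.

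The replicate number as a block left 1 gene called at each time in Zn4 against WT and changed no call count of the 5 genes. The block at each time point gave 2 called at 12 h, 2 for the interaction of 24 h against 0 h and 1 for that of 24 h against 12 h. These were, beside Lag3 at 12 h, Cd160 (0.44, adjusted p = 0.0401) at 12 h, Cd160 (-0.85, 0.0212) and Ctla4 (-1.55, 0.0487) for 24 h against 0 h, and Cd160 (-1.22, 0.0306) for 24 h against 12 h. The same block lost the call of Lag3 between 12 h and 24 h in Zn4 cells (-0.51, adjusted p = 0.0553). Same-numbered libraries did not deviate together in all groups: over 15 pairs of groups r ran from -0.115 to 0.61, with 3 above 0.1. Between genotypes at the same time r was 0.61 at 0 h, 0.192 at 12 h and 0.0429 at 24 h. Same-numbered resting libraries thus varied together, which the reported fit, without pairs, leaves out. With the block at each time point, 29, 43 and 53 list genes were called between genotypes at 0, 12 and 24 h, against 22, 33 and 40 as reported.

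Sign changes concerned values near 0 and Lag3. With 1 library left out, Pdcd1 ran from -0.07 to 0.10 (WT, 24 h against 12 h), -0.50 to 0.60 (Zn4, 24 h against 12 h), -0.09 to 0.54 (Zn4 against WT at 0 h) and -0.39 to 0.70 (24 h), and in the interactions from -0.42 to 0.21 (12 h against 0 h), -0.62 to 0.48 (24 h against 0 h) and -0.51 to 0.58 (24 h against 12 h). Lag3 ran from -0.02 to 0.58 (WT, 24 h against 12 h) and -0.13 to 0.47 (interaction of 12 h against 0 h), Cd160 from -0.10 to 0.23 (Zn4 against WT at 0 h), and Pdcd1lg2 from -0.05 to 0.11 (Zn4 against WT at 0 h) and -0.14 to 0.32 (interaction of 24 h against 12 h). Under median-ratio scaling Pdcd1 was -0.08 (WT) and -0.06 (Zn4) for 24 h against 12 h, and with the Y-linked covariate -0.06, -0.09 and, in their interaction, -0.03. Pdcd1lg2 was -0.04 under quantile normalization (Zn4 against WT at 0 h). The Lag3 interaction of 12 h against 0 h was -1.46 with 0.1 added, -2.14 by limma-voom and -0.06 with the covariate.

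Over all tested genes, the number called ranged over the alternatives from 112 to 1343 at 0 h (728 as reported), 743 to 2644 at 12 h (1671) and 1061 to 3794 at 24 h (2464) in Zn4 against WT, from 1347 to 5094 (3052) and 847 to 5604 (4273) for 24 h against 12 h in WT and Zn4 cells, and from 236 to 1319 (651), 325 to 2029 (1048) and 0 to 450 (100) in the 3 interactions. Depth limits Lag3 in resting WT cells, at 5 and 8 reads, most.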
